A study of Mus musculus with 5 samples.

Results

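Tcf7, Lef1, Myb, Sox4, Satb1, Bach2, Foxo1, Foxp1, Tox and Themis are 10 genes of the early T lineage, of which Themis encodes a signalling protein and the others encode nuclear regulators. They were taken as every non-control probe of the array whose RefSeq transcript belongs to 1 of these symbols, which gave 17 probes for all 10 genes, out of 20022 genes with a named probe. They were measured in natural killer T (NKT) cells, T cells that recognise lipids on CD1d, sorted from mouse thymus as CD3e+ cells binding a CD1d tetramer. There were 3 wild-type arrays and 2 arrays from mice without interleukin-15 (genotype IL15-/-, called IL15ko), a cytokine that NK cells and memory T cells need. All mice were on the C57BL/6 background, each sample was a pool of 10 thymi enriched for T cells before the sort, and the cells were freshly isolated. Nothing in the labels says whether replicates were sorted from different pools, so the p-values reflect the spread among these 5 samples and that spread may be technical. With 3 arrays against 2, an exact two-sided permutation test of a single gene cannot go below p = 0.1, so calls rest on limma's fit over all genes.

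The 10 genes act at successive steps of T-cell development. TCF-1 (Tcf7) and LEF-1 bind DNA through an HMG box, recruit beta-catenin or Groucho/TLE corepressors, and establish and maintain T-lineage identity. SOX4 and TOX carry HMG boxes too, MYB is needed in double-positive thymocytes for NKT cells to form, and FOXO1, FOXP1, SATB1 and BACH2 are linked to T-cell quiescence, homing and restraint of effector genes. THEMIS sets the strength of T-cell receptor signalling during thymic selection. In NKT cells the precursor and NKT2 stages are known for high TCF-1 and LEF-1, and the mature NKT1 stage for T-bet and dependence on IL-15.

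Between 33.9% and 49.6% of the 55681 probes were well above background per array, with IL15ko 2 the dimmest. The log2 75th percentile used to scale each array was 10.15, 9.79 and 10.93 in wild-type 1 to 3, and 10.40 and 8.78 in IL15ko 1 and 2. Wild-type 1 and 2 lay close together, where the log2 values of 1 array minus the other had a robust SD of 0.155, against 0.365 and 0.393 for the pairs with wild-type 3 and 0.386 for the IL15ko pair. They were counted as separate samples, as the labels number them. IL15ko 2 was also the 1 array on the second row of the slide. The single Il15 probe was well above background on 0 of 5 arrays, wild-type included, so the deletion could not be checked in these cells. Cd3e, a T-cell receptor subunit gene and part of the sort, was well above background on all 5 arrays and its difference between IL15ko and wild-type was -0.05 ± 0.13 (SE) on the log2 scale.

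Of the 10 genes, 6 were called higher in IL15ko NKT cells and 0 lower, at a limma adjusted p under 0.05 over all 11997 genes tested. In the background of all tested genes, 3.75% were called higher and 3.58% lower. The 10 genes were chosen with earlier results of these data known, so these shares give no test of them as a group. The 6 were Myb, Themis, Sox4, Tcf7, Tox and Foxo1, in falling order of their log2 differences, from 1.69 down to 0.69. Lef1 and Satb1 also had higher values, Foxp1 and Bach2 had lower values, and none of these 4 passed the test. At an unadjusted limma p under 0.05, the counts were 8 higher and 1 lower. Over all 11997 tested genes they were 1781 higher and 1518 lower. These counts over all genes are also the background for the unadjusted counts of the lists below. For all 10 genes the IL15ko arrays lay wholly on 1 side of the wild-type arrays, above them for 8 and below them for 2. This is a weak criterion here, since 25.1% of all tested genes were higher and 22% lower without overlap. The median log2 difference over all tested genes was 0.01. The plot of the members among all genes shows that Myb, Themis and Sox4 lay furthest out, with 262, 495 and 647 genes having a larger absolute difference.

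**Figure D1:**
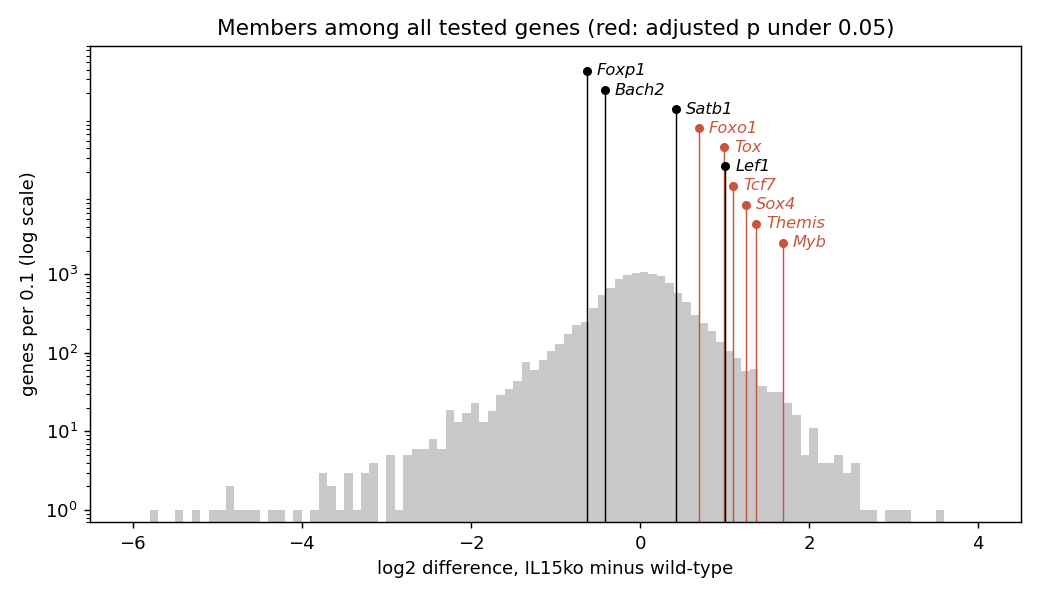
Histogram of log2 differences (IL15ko minus wild-type) of the 11997 tested genes, with the number of genes on a log axis and the 10 members marked as lines, red where the limma adjusted p was under 0.05. The height of a line has no meaning. Myb at 1.69 and Foxp1 at -0.63 are the outermost members.

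To show the DNA in front of genes that rose together and of a gene with a lower value, the 250 bases before the outermost start that RefSeq's GRCm38.p6 promoter table lists are given for Myb, Sox4, Themis and Foxp1. The table matched 9 of the 10 members, all but Tox. Capitals mark a motif word.

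Myb (chr10:21160985-21161234, minus strand): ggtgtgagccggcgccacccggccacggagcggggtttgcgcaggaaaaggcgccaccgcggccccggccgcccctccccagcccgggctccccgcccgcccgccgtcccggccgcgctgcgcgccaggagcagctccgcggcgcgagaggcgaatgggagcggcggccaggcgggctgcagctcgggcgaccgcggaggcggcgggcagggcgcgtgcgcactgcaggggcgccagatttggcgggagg

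Sox4 (chr13:28953700-28953949, minus strand): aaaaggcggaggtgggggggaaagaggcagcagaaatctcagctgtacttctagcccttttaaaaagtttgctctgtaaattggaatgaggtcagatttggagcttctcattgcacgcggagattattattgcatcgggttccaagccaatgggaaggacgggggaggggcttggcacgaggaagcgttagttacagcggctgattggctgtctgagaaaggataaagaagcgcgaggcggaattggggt

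Themis (chr10:28668110-28668359, plus strand): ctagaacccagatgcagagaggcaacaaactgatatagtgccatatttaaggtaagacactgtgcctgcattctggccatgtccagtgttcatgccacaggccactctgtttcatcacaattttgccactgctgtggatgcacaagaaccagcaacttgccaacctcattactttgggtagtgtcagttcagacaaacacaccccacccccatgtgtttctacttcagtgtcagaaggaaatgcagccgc

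Foxp1 (chr6:99520994-99521243, minus strand): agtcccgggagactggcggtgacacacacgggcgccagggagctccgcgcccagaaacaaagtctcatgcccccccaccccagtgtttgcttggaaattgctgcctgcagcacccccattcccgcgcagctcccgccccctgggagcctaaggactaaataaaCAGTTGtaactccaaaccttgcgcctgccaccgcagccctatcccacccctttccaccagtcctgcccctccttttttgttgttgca

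These stretches differ in base composition, with 81.2% G and C before Myb, 60.8% before Foxp1, 50.8% before Sox4 and 48% before Themis. Both strands were searched for CTTTGAT or CTTTGAA (TCF/LEF), CAACTG or CAACGG (MYB) and GTAAACA (forkhead), words that do not contain one another. The TCF/LEF words were found in 0 of 9 members and in 7.69% of 27025 promoters of the same length, and the forkhead word in 0 of 9 and 3.06%. A MYB word was found in 1 of 9 members and in 14.7% of all promoters. That match is CAACTG on the opposite strand, 87 bases before the Foxp1 start. The windows of Tcf7, Foxp1 and Bach2 lie with all 250 bases inside the annotated span of their gene, so they precede an internal start and are not the sequence upstream of the gene. In the other 6 members 0 matches to any of these words were found. The listed starts need not be those used in these cells, and these windows leave out distal elements.

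Tcf7, which encodes TCF-1, rose 2.14-fold in IL15ko (95% confidence interval 1.63 to 2.81). Its scaled log2 signal (log2 minus the array's 75th percentile) was -0.02, -0.02 and -0.34 in wild-type 1 to 3 and 0.98 and 0.96 in IL15ko 1 and 2. Both IL15ko arrays thus lay at nearly the same level, 0.98 above the highest wild-type array. The log2 difference was 1.10 ± 0.16 (SE), with a limma adjusted p of 0.0227. The other Tcf7 probe, of the same RefSeq transcript and also well above background on all 5 arrays, had values of -2.74, -2.74 and -2.92 against -1.13 and -1.25. Its log2 difference was larger, 1.61 ± 0.14, with a limma adjusted p of 0.0103 over all probes. The scaling bears on these values, since the unscaled intensity of the first probe was 1121, 875 and 1548 in wild-type and 2671 and 857 in IL15ko, where IL15ko 2 did not stand above wild-type.

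Lef1, the gene of the closest TCF-1 relative, had values in the same direction with more spread. The scaled log2 signal was 0.98, 1.11 and 0.43 in wild-type and 1.87 and 1.84 in IL15ko. Wild-type 3 stood below the other wild-type arrays, and both IL15ko arrays lay 0.72 or more above the highest of them. The log2 difference was 1.01 ± 0.23, or 2.01-fold (95% confidence interval 1.34 to 3.03), and missed the threshold with a limma adjusted p of 0.0666. In both HMG-box genes wild-type 3 was the lowest wild-type array and the IL15ko pair differed little, with an SD of 0.01 for Tcf7 and 0.02 for Lef1. 

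**Figure D2:**
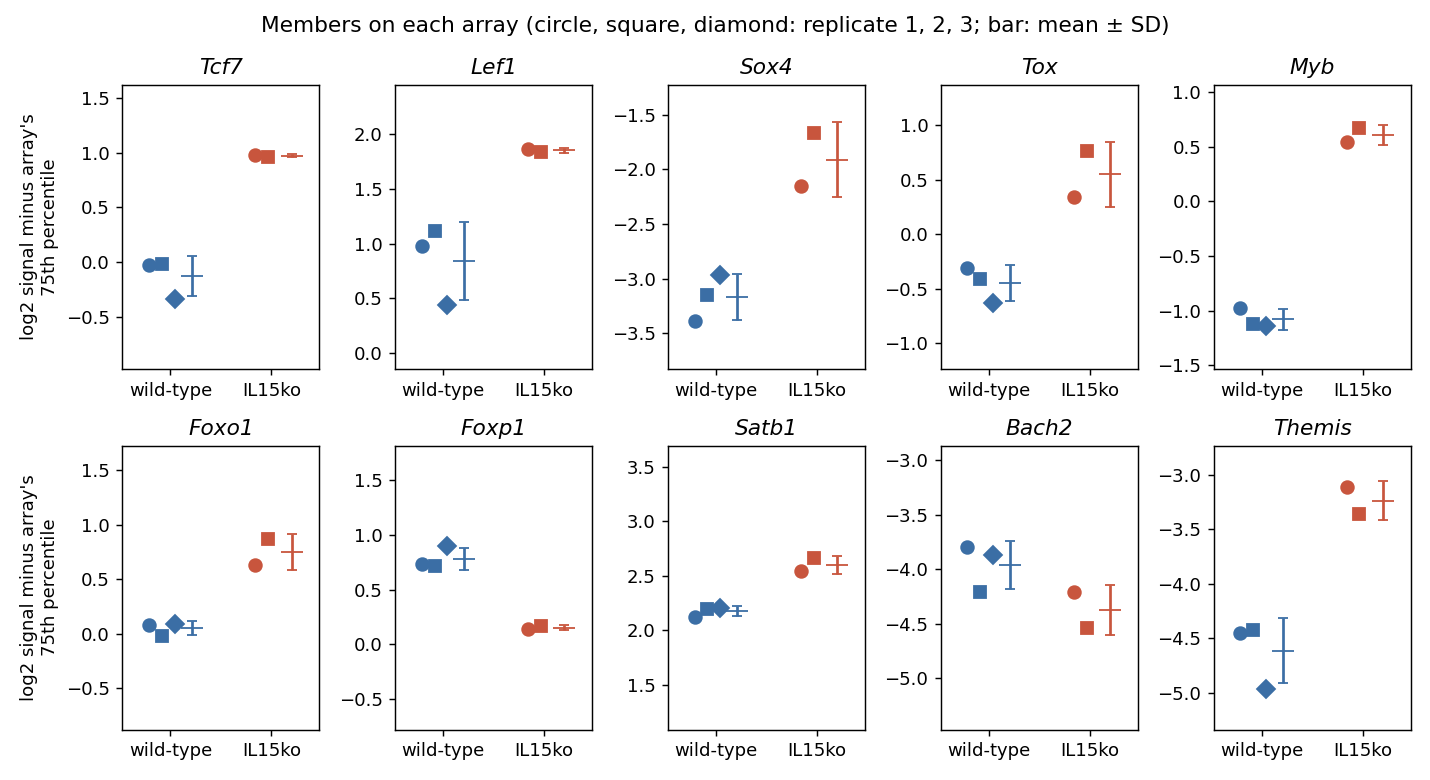
Scaled log2 signal of the brightest probe of each of the 10 genes, a point per array (circle, square and diamond for replicates 1, 2 and 3) and a bar for each group's mean ± SD, for 3 wild-type and 2 IL15ko arrays. The groups are apart in every panel, by 1.51 for Myb and by 0.003 for Bach2. Levels of different genes come from different probes and are not comparable.

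SOX4 and TOX are the other HMG-box proteins of the group. SOX4 is a survival and lineage factor of lymphoid progenitors, and TOX is needed for CD4-lineage and NKT-cell development. Sox4 gave -3.38, -3.15 and -2.97 in wild-type and -2.15 and -1.67 in IL15ko. Wild-type 3, the lowest wild-type array for Lef1, was the highest here, and the IL15ko arrays were 0.81 or more above it. Sox4 rose 2.39-fold (95% confidence interval 1.64 to 3.47), a log2 difference of 1.26 ± 0.21 with a limma adjusted p of 0.034. Its other probe was well above background on only 3 arrays, 2 wild-type and 1 IL15ko. That probe gave overlapping values and a log2 difference of 0.19 ± 0.42, so the Sox4 call rests on 1 probe.

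Tox gave -0.30, -0.41 and -0.63 in wild-type and 0.34 and 0.76 in IL15ko, from its only named probe. Both IL15ko arrays lay above all wild-type arrays, IL15ko 2 the higher. Tox rose 1.99-fold (95% confidence interval 1.43 to 2.78), a log2 difference of 1.00 ± 0.19 with a limma adjusted p of 0.0435, which is close to the threshold.

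Myb showed the widest separation of the 10 genes. MYB is a DNA-binding factor of haematopoietic progenitors and thymocytes that supports proliferation and survival. Its scaled log2 signal was -0.97, -1.13 and -1.14 in wild-type and 0.54 and 0.67 in IL15ko. The arrays within each group lay close together, with an SD of 0.09 in wild-type and 0.09 in IL15ko, and the nearest arrays of the groups were 1.51 apart. Myb rose 3.22-fold (95% confidence interval 2.55 to 4.06), a log2 difference of 1.69 ± 0.13 with a limma adjusted p of 0.00848. Among all tested genes, 49 had a smaller p. On the unscaled intensity, Myb read 581, 405 and 889 in wild-type and 1970 and 701 in IL15ko, so IL15ko 2 lay above wild-type 1 and 2 even before its lower overall brightness was scaled.

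Themis had low signal in both groups and rose by a similar ratio to Sox4. The values were -4.45, -4.42 and -4.96 in wild-type and -3.11 and -3.36 in IL15ko, well above background on all 5 arrays. The lower IL15ko array stood 1.06 above the highest wild-type array. The log2 difference was 1.37 ± 0.22, or 2.59-fold (95% confidence interval 1.77 to 3.79), with a limma adjusted p of 0.0286. The unscaled intensity was 52.0, 41.2 and 63.0 in wild-type and 156 and 42.8 in IL15ko, so on IL15ko 2 the difference appears only after scaling. A dimmer Themis probe was well above background on 2 arrays, wild-type 2 and IL15ko 1, and gave overlapping values with a log2 difference of 0.49 ± 0.79.

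The forkhead genes Foxo1 and Foxp1 had differences of opposite sign. FOXO1 is held out of the nucleus by PI3K and AKT signalling and, when nuclear, drives genes of T-cell homing. FOXP1 maintains quiescence of naive T cells. Foxo1 gave 0.08, -0.02 and 0.09 in wild-type and 0.63 and 0.86 in IL15ko, with all IL15ko arrays above all wild-type arrays. It rose 1.62-fold (95% confidence interval 1.27 to 2.06), a log2 difference of 0.69 ± 0.14 with a limma adjusted p of 0.0476, the closest to the threshold among the 6 called genes. Its other probe gave -0.76, -0.91 and -0.97 against -0.44 and -0.15, a log2 difference of 0.58 ± 0.16 that did not pass in the fit over all probes (limma adjusted p 0.0985). In that fit the brightest Foxo1 probe did not pass either, with a limma adjusted p of 0.0553.

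Foxp1 gave 0.73, 0.72 and 0.90 in wild-type and 0.14 and 0.17 in IL15ko. Both IL15ko arrays lay 0.55 or more below every wild-type array. The log2 difference was -0.63 ± 0.13, a ratio of 1.55 in favour of wild-type (95% confidence interval 1.24 to 1.94), and narrowly missed the threshold with a limma adjusted p of 0.0511. Its other probes also had lower values in IL15ko, with log2 differences of -0.93 ± 0.25 and -0.16 ± 0.14, neither of which passed. All 3 Foxp1 probes thus had the same sign and unequal sizes, and the array's file does not say which Foxp1 isoforms each one reads.

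SATB1 organises chromatin loops in thymocytes and is needed for T-cell maturation. Satb1 gave 2.12, 2.19 and 2.21 in wild-type and 2.54 and 2.66 in IL15ko, without overlap. The log2 difference of 0.43 ± 0.12 (1.34-fold, 95% confidence interval 1.08 to 1.67) did not pass, with a limma adjusted p of 0.103.

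BACH2 is a bZIP repressor that holds back effector differentiation, in part by competing with AP-1 factors. Bach2 gave -3.80, -4.21 and -3.87 in wild-type and -4.21 and -4.54 in IL15ko, where wild-type 2 and IL15ko 1 were only 0.003 apart. The log2 difference was -0.42 ± 0.19 with a limma adjusted p of 0.233, and its 95% confidence interval as a ratio in favour of wild-type ran from 0.953 to 1.87, which includes no difference. A dimmer Bach2 probe gave -0.40 ± 0.37 with overlapping values.

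**Figure D3:**
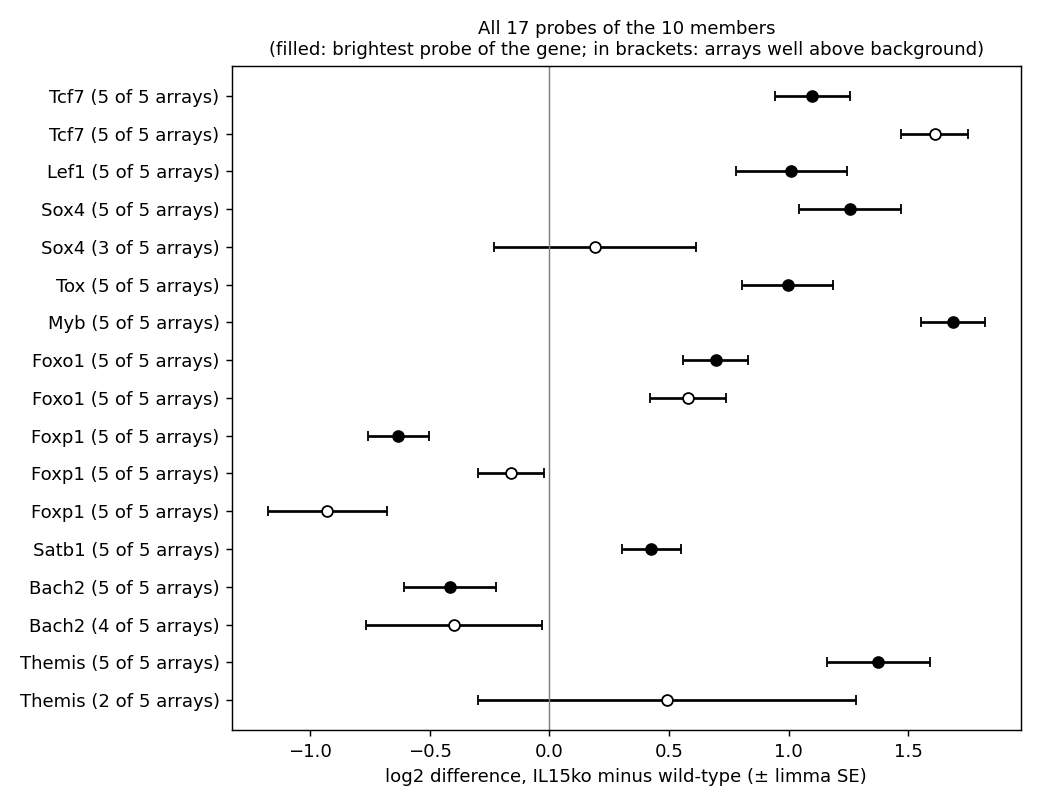
Log2 difference (IL15ko minus wild-type) with its limma standard error for each of the 17 named probes of the 10 genes, filled for the brightest probe of a gene, with the number of arrays on which the probe was well above background in brackets. Errors of filled probes come from the fit over genes, and those of open probes from the fit over all named probes. Both Tcf7 probes lie above 1, at 1.10 and 1.61, while the dim Sox4 and Themis probes have errors of 0.42 and 0.79.

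Array order within a group was not shared by the 10 genes. Wild-type 3 was the lowest wild-type array for 5 of them (Tcf7, Lef1, Tox, Myb and Themis) and the highest for 4 (Sox4, Foxo1, Foxp1 and Satb1). IL15ko 2, the dim array, was above IL15ko 1 for 6 genes and below it for 4. The reliance on scaling was not particular to Tcf7 and Themis. Before scaling, IL15ko 2 read 1570 for Lef1, 800 for Foxo1 and 2779 for Satb1. The lowest wild-type arrays read 1912, 873 and 4045, so it lay below all of them. For Sox4 and Tox it lay among the wild-type arrays.

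Partners and feedback targets of TCF-1 and LEF-1 showed no called change beside Tcf7. Of 20 such genes with a probe, 16 were tested, and limma called 0 higher and 0 lower (unadjusted p under 0.05 in 3 higher and 1 lower). Their median log2 difference was 0.09, against 0.01 over all tested genes. Ctnnb1, which encodes beta-catenin, had a log2 difference of 0.08 ± 0.14. Axin2, a Wnt feedback gene, had -0.51 ± 0.63 with a limma adjusted p of 0.627. It read -4.79, -4.77 and -5.17 in wild-type, with IL15ko 1 above them at -4.34 and IL15ko 2 below them at -6.50. With the IL15ko arrays on opposite sides and only 4 arrays well above background, its mean difference gives no direction. Nkd1, Pygo1, Tcf7l1 and Tle2 were well above background on no array.

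The list of naive T-cell genes linked to TCF-1, LEF-1 and FOXO1 held called genes in both directions. Of 19 tested, 9 were called higher, 1 lower and 9 neither, with a median log2 difference of 0.83. At an unadjusted limma p under 0.05 the counts were 10 higher and 4 lower. The 4 lower were Txnip, Klf2, Cdkn1b and Bcl2l11, the last 2 with log2 differences of -0.46 and -1.28. Ccr7, a lymph-node homing receptor gene, read -0.65, -0.56 and -0.50 in wild-type and 1.25 and 0.94 in IL15ko, with no overlap. It rose by 1.67 ± 0.15 on the log2 scale (limma adjusted p 0.0101), and Slamf6, a receptor gene of thymocyte contacts linked to NKT-cell development, by 1.56 ± 0.14. Txnip, a glucose-uptake inhibitor and FOXO target, was the 1 gene called lower, with a log2 difference of -2.10 ± 0.25 and a limma adjusted p of 0.0173. Klf2 and S1pr1, genes of thymic exit that FOXO1 controls, had log2 differences of -0.62 and 0.83 and did not pass, and Il7r had -0.06.

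Of 11 tested genes in the list of MYB relatives and selection targets, 4 were called higher and 1 lower, with a median log2 difference of 0.74. At an unadjusted limma p under 0.05 the counts were 7 higher and 2 lower. Zbtb16, which encodes PLZF, the factor that directs NKT-cell development, read 1.74, 1.73 and 1.46 on the wild-type arrays and 3.01 and 3.28 on the IL15ko arrays. Its log2 difference was 1.50 ± 0.17 (limma adjusted p 0.0161). Mybl2, a MYB relative expressed in dividing cells, rose by 1.45 ± 0.21, and Ccne1, a cyclin gene of S-phase entry, by 0.98. Bcl2, a survival gene that MYB is known to activate and that IL-15 is known to sustain, went from 0.94, 1.01 and 0.71 to -1.59 and -0.87. Its log2 difference was -2.12 ± 0.25 (limma adjusted p 0.0173), opposite in sign to that of Myb. Bcl2l1, the BCL-XL gene, had -0.80 and a limma adjusted p of 0.0589.

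Most relatives of the other members could not be tested. Of 17 relatives in the SOX, TOX, FOX, SATB, BACH and THEMIS families, 7 were tested and 8 were well above background on no array. Bach1, a BACH2 relative that represses haem-responsive genes, was called lower with a log2 difference of -0.87 ± 0.15 (limma adjusted p 0.0348), and 0 relatives were called higher (unadjusted p under 0.05 in 2). Tox2 had a log2 difference of 0.77 and did not pass.

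Among 8 tested BACH2 partners and targets, limma called 0 in either direction (unadjusted p under 0.05 in 1 higher and 1 lower), with a median of 0.22. Prdm1, the Blimp-1 gene that BACH2 represses, had a log2 difference of -1.03 ± 0.28 and a limma adjusted p of 0.0895. Of 8 tested THEMIS partners, 1 was called higher and 0 lower (unadjusted p under 0.05 in 1 lower), with a median of -0.04. That gene was Cd5, a brake on receptor signalling, with 0.66 ± 0.12 and a limma adjusted p of 0.0398. Of 14 other early T-lineage factors tested, 0 were called in either direction (unadjusted p under 0.05 in 4 higher and 1 lower), with a median of 0.10. Lmo2 at 1.11, Tcf3, the E2A gene, at 0.69 and Runx3 at -0.80 lay just outside the threshold, with limma adjusted p of 0.0504, 0.0537 and 0.0546.

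**Figure D4:**
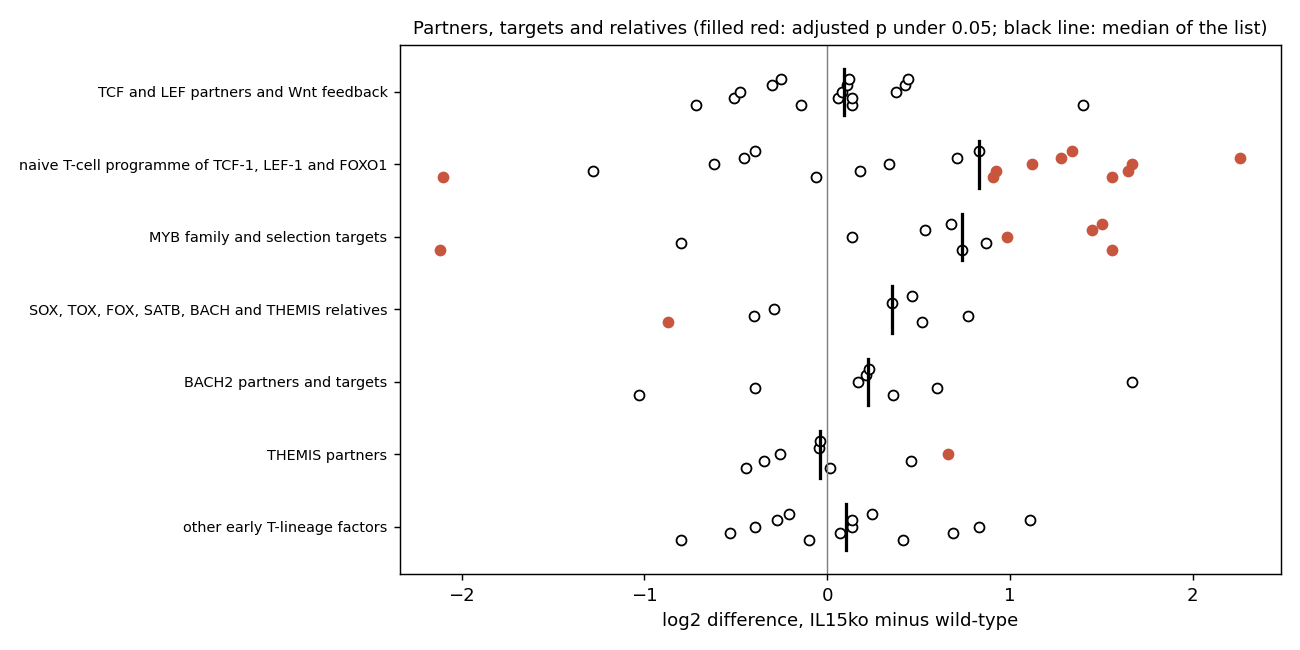
Log2 differences (IL15ko minus wild-type) of the tested genes in the lists around the 10 factors, a point per gene and a line at each list's median, filled red where the limma adjusted p was under 0.05. The naive T-cell list has 10 called genes out of 19 and the TCF and LEF partner list has 0 of 16.

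Markers of NKT-cell subsets were also called in this comparison. Of 9 tested NKT1 markers, 8 were called lower and 0 higher (unadjusted p under 0.05 in 0 higher), and their summed scaled linear signal was 50.2 to 50.9 in wild-type and 12.1 to 17.4 in IL15ko. Of 9 tested NKT2 markers, 7 were called higher, with a sum of 19.7 to 20.5 against 39.7 to 40.3. Icos gave the largest part of that sum on every array. The 2 not called were Il4 and Gata3, with log2 differences of 0.66 and 0.14 (limma adjusted p 0.0867 and 0.683). Of 9 tested NKT17 markers, 8 were called higher, with a sum of 1.62 to 2.00 against 4.84 to 5.22. Tbx21, which encodes T-bet of NKT1 cells, had a log2 difference of -1.77 ± 0.15. In these bulk samples a different share of cells of a subset and a different amount of RNA per cell cannot be told apart. The part of subset composition in the members' differences was not tested.

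Markers of double-positive and immature thymocytes, which also express Tcf7, Lef1, Myb, Sox4, Satb1 and Themis, were partly above background. Of 12 with a probe, 5 were tested, 2 were called higher and 0 lower (unadjusted p under 0.05 in 0 lower). Their summed signal was 2.28 to 2.79 in wild-type and 5.71 to 5.82 in IL15ko. Ccr9, a thymus-homing receptor gene, was among those called, with a log2 difference of 1.78. The defining genes Rag1, Rag2, Ptcra, Cd8a and Cd8b1 were well above background on 0 arrays.

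Of lists for other cell types, NK-cell markers summed to 17.9 to 19.3 in wild-type and 1.79 to 2.58 in IL15ko. All 3 tested genes were called lower, while Ncr1 was well above background on no array and Eomes on 1. Most NKT1 markers were called lower too, and whether NK cells or NKT cells gave the signal of these genes was not tested. Myeloid and dendritic cell markers summed to 6.64 to 8.52 and 4.93 to 11.1, with Lyz2, Itgax and Cd209a on no array. Of 3 tested genes 1 (Fcer1g) was called lower, and which cells gave its signal was not tested. Csf1r lay just outside the threshold, with a log2 difference of -2.29 ± 0.46 (limma adjusted p 0.0508). Itgam, the brightest of the 3 on every array, had 0.70 and was not called. B-cell markers summed to 0.0515 to 0.116 and 0.0889 to 0.108, with Cd79a, Ms4a1 and Pax5 on no array and Cd79b, the 1 tested gene, not called. Epithelial and stromal markers summed to 0.111 to 0.146 and 0.150 to 0.172, with 0 of 3 called and Krt8 and Foxn1 on no array. Erythroid markers summed to 0.0233 to 0.0347 and 0.0225 to 0.0278, with 0 of 1 called and Alas2 on no array. The NKT-cell list summed to 71.6 to 80.2 and 60.1 to 62.4, with 2 of 9 genes called higher and 1 lower.

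Genes with the pattern nearest to Tcf7, Myb and Lef1 were found by the root mean square difference of log2 values over the 5 arrays, each gene centred on its own mean. The search covered 9468 genes well above background on every array, with the members and genes with accession-type names left out. Nearest to Tcf7 were Recql4 (0.0315), Cd74 (0.0345) and Zfr2 (0.0509), a helicase gene, the MHC class II invariant chain gene and a zinc-finger gene. Nearest to Myb were Tlr1 (0.0599), Emb (0.0905) and Adh1 (0.0996). Nearest to Lef1 were Eme1 (0.0595), Parm1 (0.0646) and Ajm1 (0.0683). Likeness over 5 arrays is a description and says nothing of function.

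The calls depended on single arrays and on the processing far more than the signs did. Over 18 alternatives Myb was called in 15, with log2 differences of 1.55 to 1.75. Tcf7 was called in 10 (0.99 to 1.35), Sox4 in 9 (0.72 to 1.50), Tox in 8 (0.79 to 1.21), Themis in 8 (0.93 to 1.50) and Foxo1 in 3 (0.58 to 0.81). Of the 4 genes not called, Lef1 was called in 4 alternatives, Foxp1 in 2, Satb1 in 1 and Bach2 in 0. The number of members called fell to 0 without wild-type 1, and to 1 (Myb) without wild-type 2, without IL15ko 1 or without IL15ko 2. Without wild-type 3 it was 4, namely Tcf7, Lef1, Myb and Themis. The number called over all genes fell with it, to 9, 105, 336 and 192 in the first 4 cases.

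**Figure D5:**
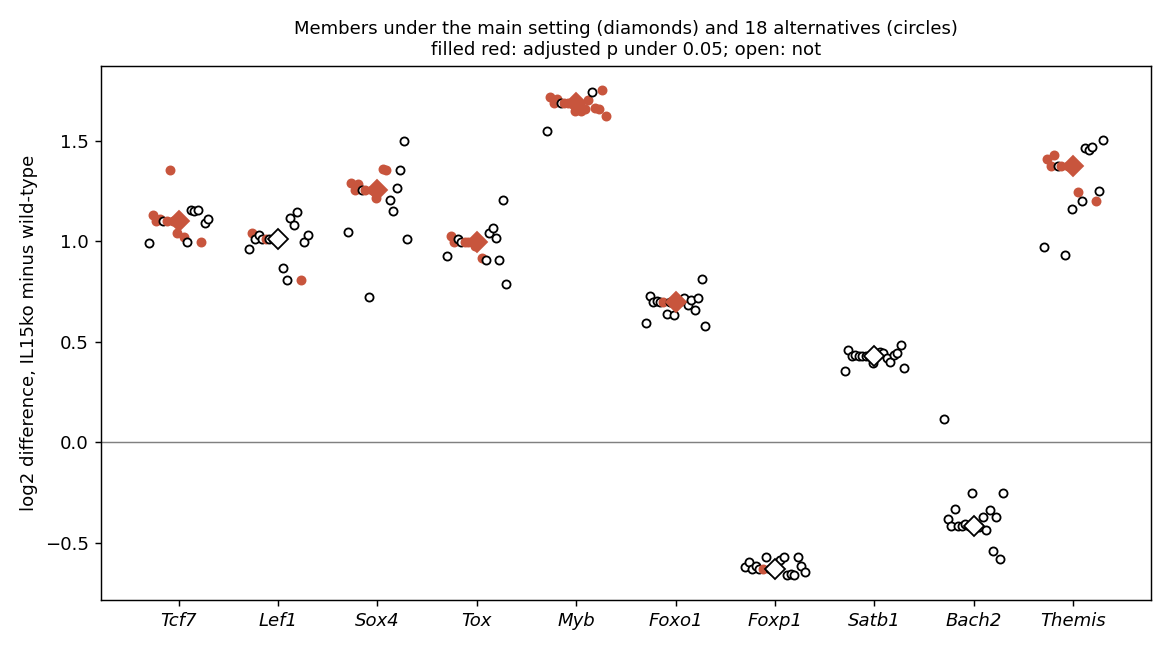
Log2 difference (IL15ko minus wild-type) of each of the 10 genes under the reported processing (diamond) and 18 alternatives (circles), filled red where the limma adjusted p was under 0.05. Values of Myb stay between 1.55 and 1.75, and 1 value of 180 changes sign, that of Bach2 with normexp.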

How the data were processed

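Thymic NKT cells were measured on 1-colour Agilent arrays, 1 per sample, all on 1 slide. Per the file headers, linear spot intensity in the deposited files came from Agilent Feature Extraction 10.7.1.1, whose processed signal is already background-corrected, and name mm9 for the array design. The submitters' processing notes also name limma, without settings. The authors' deposited value table holds intensity on a linear scale, equal to spot median minus local background plus a constant per array, with column medians of 27.2, 24.6 and 29.0 in wild-type and 26.4 and 16.2 in IL15ko, so it is not scaled between arrays. It was used as an alternative.

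Deposited processed signals were put on the log2 scale, and the 75th percentile of each array was subtracted, taken over 18519 probes that were well above background throughout. Control spots and outlier spots were left out, and 0 spots were saturated. Accessions were matched without versions to RefSeq's mouse annotation (GRCm38.p6), which named 26425 of 55681 probes with 1 symbol, 0 with several and 29256 with none. Each gene took its brightest probe, and genes that passed the background flag on 2 or more arrays entered limma 3.58.1 in R 4.3.3, Benjamini-Hochberg threshold 0.05, with 3 residual and 2.28 prior degrees of freedom. Values for a gene's brightest probe come from this fit unless stated, and those for its other probes from the same fit over all named probes. No value of the 10 genes was missing. Errors are limma's standard errors unless called SD, and the number of arrays limits the precision. The fit was tested on simulated data.

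The members and all lists were chosen with earlier results of these data known. All members and their probes are named. Of each list, up to 4 called genes with the smallest p and those needed to describe a count are named, with the 3 genes nearest to Tcf7, Myb and Lef1. Some genes named beyond these, such as Klf2, S1pr1, Axin2 and Tox2, were picked after their values were seen. The values of 3 list genes are not reported here. Alternatives covered background correction, scaling, filter, probe summary, limma options, the replicate block and leaving out each array. Normexp was run on spot medians, as chosen after seeing the data.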

Additional observations from a re-analysis of the deposited data

How the results depend on the processing

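Across 18 alternatives, 179 of 180 member values kept their sign. Bach2 reversed with normexp, to 0.11 (limma adjusted p 0.773). Called members lost their call in 55 cases and uncalled ones gained it in 7; why was not tested beyond what each alternative changes. Against 879 genes and 6 members called, normexp gave 1 and 0, and no filter on dim probes gave 3 and 0, over 20022 genes in place of 11997. Averaging a gene's probes left 3 members higher. Testing only genes above background on all 5 arrays, or a trended and robust variance (1515 genes called), each called 1 member lower, Foxp1. Averaging wild-type 1 and 2 into 1 sample gave 101 genes and 1 member. Leaving out 1 array gave 9 to 784 genes and 0 to 4 members. Replicate numbers 1 and 2 are shared by the groups, but the labels tie them to no common batch. The fit with the replicate number as a replicate block has 1 residual degree of freedom and called 379 genes and 2 members, Sox4 and Myb. Wild-type 3 is alone in its block, so the members' log2 differences in this fit equal those without wild-type 3. Myb lost its call with normexp, without the filter and without wild-type 1, at limma adjusted p of 0.0535, 0.0812 and 0.0607. Signal over background limits the dim Sox4, Bach2 and Themis probes.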
